A study of Homo sapiens with 12 samples.

Results

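The autophagy machinery and its receptors are described here at the level of their mRNAs in human embryonic kidney cells treated with AA263 and its analogs. The 38 genes were taken by symbol from the deposited RNA-seq tables, by a list whose rule uses no measured value but which was drawn up with earlier results of these data known. All 38 were found among the 23292 symbols listed. The cells came from a human embryonic kidney line, which the labels name both HEK293 and HEK293T. They were treated for 6 h with DMSO vehicle or with AA263, AA263yne or AA263-5 at 10 µM, with 3 samples in each of the 4 groups and 12 in all. AA263 is a phenylhydrazone that activates the ATF6 arm of the unfolded protein response, and AA263yne and AA263-5 are analogs of it. All groups were of the same wild-type line, and whether the samples of a group came from separate cultures was not stated in the sources used here.

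The level given for each gene is the authors' mean normalized value over all samples, treated and vehicle together. It is 1 number per gene, so it carries no SD and no n, and no difference between the compounds and vehicle was computed from it. Depth per sample was not analysed here, and no counting error is given. A longer transcript yields more reads at the same abundance, so levels of different genes are given per kb, divided by the length of the gene's canonical transcript. Values given as listed are not corrected for length and do not rank genes by abundance. The line's own markers were present. All 6 HEK293 markers reached 10, with listed values from PAX2, a kidney transcription factor, at 27.7 to the intermediate filament gene VIM at 18797. PAX2 was low, at 6.62 per kb, the 5.09 percentile of the genes of at least 10. Of the markers of other cell types, 0 of 3 hepatocyte genes reached 10, and the endocrine genes INS and GCG were not listed.

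Autophagy encloses cytoplasm in a double membrane, the autophagosome, and delivers it to lysosomes. The ULK kinase complex starts the process, a lipid kinase complex marks the forming membrane with phosphatidylinositol 3-phosphate, and ATG9 and ATG2 proteins supply the membrane with lipid. Small ubiquitin-like ATG8 proteins are then attached to the membrane lipid by a conjugation machinery, and receptors tether cargo, including pieces of the ER, to them.

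Most of the machinery was well represented. Of the 38 genes, 36 reached a value of 10, and the 2 that did not were CCPG1 at 9.96 and MAP1LC3A at 1.04. Among all 23292 symbols listed, 15638 reached 10, so reaching it is common, here and in the further gene lists below. The highest value as listed was 6761, for ATG9A. As listed, the median value over the 38 genes was 1508, against 571 over the 15638 genes of at least 10, and the median percentile of the 38 among those genes was 70.2. Per kb of transcript the median was 429, against 206 over the 14078 of those genes that could be matched to a length, and 24 of the 38 lay above that second median. The machinery was neither rare nor among the most abundant: 10 of the 38 lay in the top 25% of genes per kb, and GABARAP alone lay in the top 10%. Together the 38 genes made up 0.177% of the sum of all values.

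**Figure D1:**
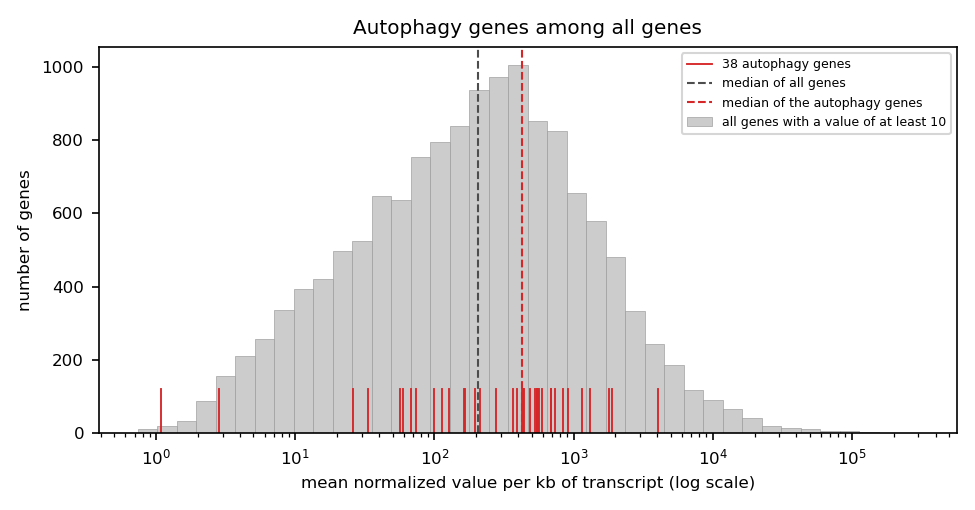
Number of genes (vertical axis) by mean normalized value per kb of transcript (horizontal axis, log scale) for the genes of at least 10, with each of the 38 autophagy genes as a red tick. The dashed lines mark the medians of 206 for all genes and 429 for the autophagy genes, and 2 ticks, MAP1LC3A and CCPG1, stand at the far left.

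The spread within the set was wide, within roles as well as between them. The medians per kb ran from 164 for the lipid kinase complex to 639 for the ATG4 proteases among the 7 roles with more than 1 gene, while single genes of 1 role differed by up to 44.7-fold even where every gene of the role reached 10. Levels per kb refer to the canonical transcript unless another length is named. The order within a role often depended on that choice: over 4 lengths the highest gene was the same in 2 of the 7 roles (ATG9A in membrane delivery and GABARAP among the ATG8 proteins), and the lowest in 5. One of these lengths, the median protein coding transcript, includes short fragments. For some genes, RB1CC1, PIK3R4 and CALCOCO2 among them, it is shorter than the coding sequence. ATG13 and TAX1BP1 led their roles with every length but that one. The plot of levels by role shows each gene beside those it works with.

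**Figure D2:**
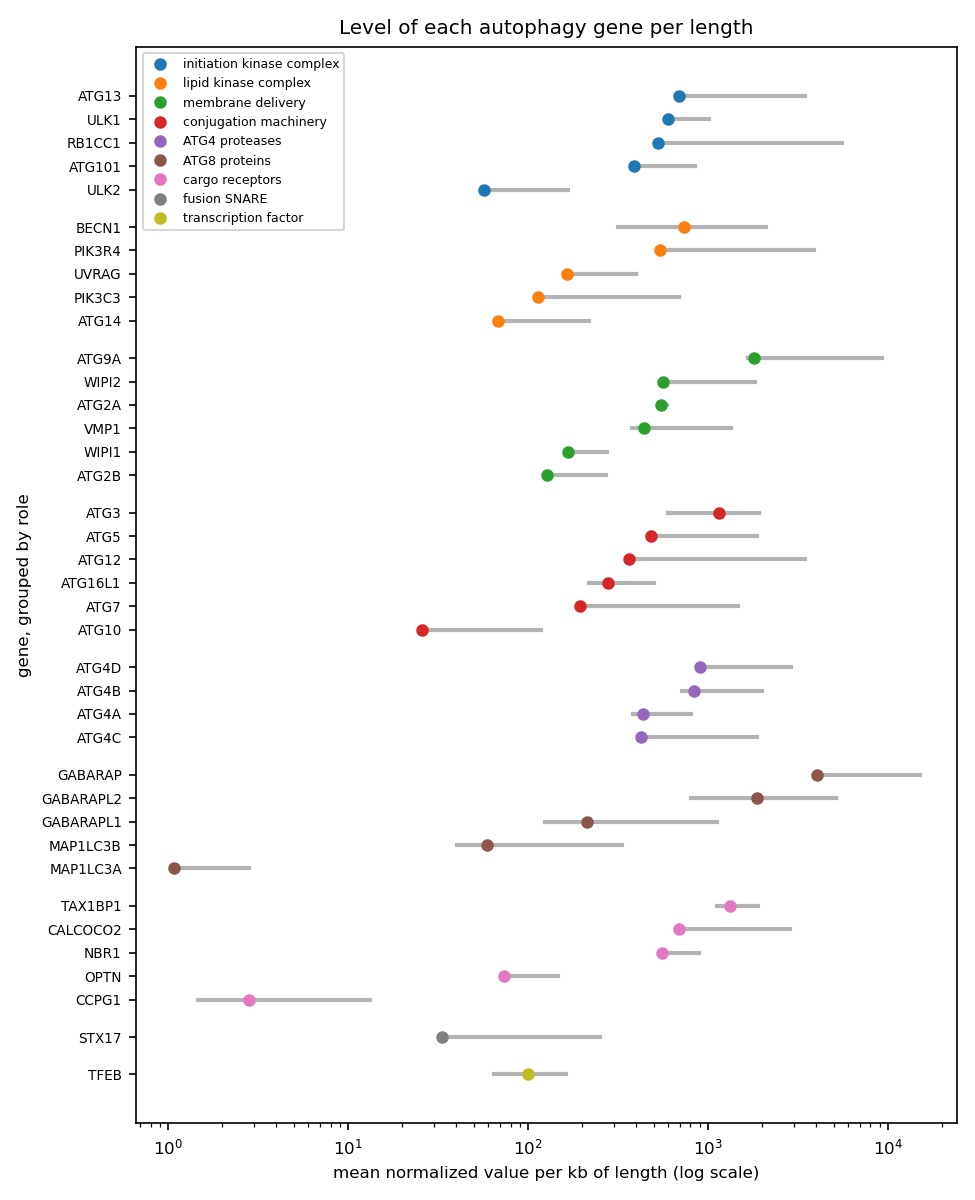
Mean normalized value per kb of the canonical transcript (points, horizontal axis, log scale) for the 38 genes, grouped and coloured by role. Grey lines span the values obtained with 3 other lengths (longest transcript, median protein coding transcript, coding length); GABARAP is highest at 4036 and MAP1LC3A lowest at 1.07.

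Of the initiation kinase complex, all 5 genes were above 10. ATG13, the adaptor that binds the kinase, had the highest level per kb, at 687. ULK1, the kinase itself, was at 597, and RB1CC1, which encodes the scaffold FIP200, was at 531. ATG101, which stabilizes ATG13, followed at 391. With the median protein coding transcript these 4 spread from 597 for ULK1 to 5584 for RB1CC1. For RB1CC1 that length is 631 bases, against a coding sequence of 4785. The second kinase gene, ULK2, was the lowest of the 5 with each length, at 56.8 per kb, 10.5-fold below ULK1. The ratio of ULK1 to ULK2 was 4.50 with the median protein coding transcript and 6.04 with the coding length, so ULK1 was the higher of the pair on each scale. The 2 kinases had identical residues at 52.2% of the positions of their alignment.

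The lipid kinase complex was led by BECN1 or PIK3R4, depending on the length. BECN1, a scaffold subunit, was at 732 per kb, and PIK3R4, the regulatory pseudokinase VPS15, was at 541. With the longest transcript BECN1 was at 317.5 and PIK3R4 again at 541, and with the median protein coding transcript they were at 2113 and 3888. That last length, 731 and 698 bases, is shorter than their coding sequences of 1353 and 4077. PIK3C3, the catalytic subunit VPS34, was lower, at 113. The subunits that define the alternative complexes were ATG14, which directs the kinase to forming autophagosomes, at 68.2, and UVRAG, which directs it to endosomes, at 164. Among the regulators of this complex, all 3 genes examined reached 10, from RUBCN, an inhibitor, at 99.3 per kb to AMBRA1, an activating scaffold, at 638.

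Genes for membrane delivery included ATG9A, whose listed value was the highest of the 38. It encodes a lipid scramblase carried on seed vesicles and was at 1793 per kb, while its paralog ATG9B was at 4.49. ATG2A and ATG2B encode lipid transfer proteins that bridge the ER to the growing membrane, and were at 547 and 128, a ratio of 4.27. The ratio fell to 2.20 with the coding length, since ATG2B has the longest transcript of the set, at 13162 bases. WIPI2, which reads phosphatidylinositol 3-phosphate and recruits ATG16L1, was at 560 and exceeded WIPI1, at 166, by 3.37-fold, a ratio that was 4.66 with the median protein coding transcript and 7.71 with the coding length. Further proteins of the same family are encoded by WDR45, at 889 per kb, and WDR45B, at 1715, both above either WIPI gene on this scale. VMP1, an ER scramblase needed for autophagosome formation, was at 443.

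The conjugation machinery had 1 gene far below the others, ATG10, which was the lowest of the 6 with each length. ATG3, the enzyme that transfers ATG8 proteins to lipid, was at 1153 per kb. ATG10, the corresponding enzyme for ATG12, was at 25.8, which is 44.7-fold lower and 17.8-fold lower with the median protein coding transcript. ATG7, the activating enzyme that serves both, was at 195. The products of the ATG12 branch were closer to each other: ATG5 was at 485, its ubiquitin-like partner ATG12 at 364 and ATG16L1, which places the conjugate on the membrane, at 277. ATG16L2, a paralog of the last, was at 152 per kb. The ratio of ATG3 to ATG7 was 5.93 with the canonical transcript and 3.09 with the longest. With the coding length they were at 1913 and 491. Only with the median protein coding transcript was ATG7 the higher, with a ratio of 0.789. For ATG7 that length, 710 bases, is shorter than its coding sequence of 2112.

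The 4 ATG4 proteases, which trim ATG8 proteins before conjugation and release them from lipid afterwards, were all present. ATG4D was at 909 per kb, ATG4B at 842, ATG4A at 436 and ATG4C at 422, a range of 2.15-fold that widened to 4.61-fold with the median protein coding transcript. ATG4D and ATG4B changed places with the coding length, where the ratio of ATG4D to ATG4B was 0.628, so neither can be placed above the other. By sequence the proteases formed 2 pairs: ATG4A and ATG4B had 53.4% identical positions and ATG4C and ATG4D 41.1%, against 25.1% to 27.3% for the pairings across them.

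In the ATG8 family the GABARAP branch made up nearly all of the summed level. GABARAP was at 4036 per kb and GABARAPL2 at 1877, and GABARAPL1 was at 212. MAP1LC3B was listed lower, at 59.0, and MAP1LC3A at 1.07. With the canonical transcript, the order of GABARAPL1 and MAP1LC3B turns when the value of a near-identical copy, described next, is added to MAP1LC3B. As shares of the family's summed level per kb, GABARAP made up 65.2%, GABARAPL2 30.4%, GABARAPL1 3.43%, MAP1LC3B 0.954% and MAP1LC3A 0.0174%. GABARAP and GABARAPL1 encode the most alike proteins of the set, with 86.3% identical positions, yet their transcripts were at opposite ends of this branch. MAP1LC3A and MAP1LC3B were 79.2% identical, and pairs across the branches were 29.6% to 40.5% identical. ATG4 proteases cut after a glycine near the end of these proteins. The last glycine was residue 116 in the 3 GABARAP proteins and residue 120 in both LC3 proteins. It was followed by 1 residue in all but MAP1LC3B, where 5 residues followed. The remaining LC3 gene, MAP1LC3C, was at 0.912 per kb, beside 1.07 for MAP1LC3A.

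Part of the sequence of MAP1LC3B is also found in another listed gene. MAP1LC3B lies at chr16:87383953-87404779 on the plus strand of GRCh38, in 4 exons, and a near-identical copy of its coding sequence, MAP1LC3B2, lies at chr12:116548105-116576606. MAP1LC3B was listed at 127 and MAP1LC3B2 at 383, a ratio of 3.02 as listed and of 7.93 per kb. Both coding sequences are 378 bases long and differ at 2 bases, C30G and A338G, with positions counted from the first base of the start codon and the base of MAP1LC3B given first. The proteins of 125 residues differ at 1 residue. The stretch below, from coding base 204 to 363, lies within 1 exon of each gene and is shown because it holds 1 of the 2 bases that differ within the coding sequence. That base is in capitals.
MAP1LC3B (GRCh38, chr16:87402923-87403082, plus strand): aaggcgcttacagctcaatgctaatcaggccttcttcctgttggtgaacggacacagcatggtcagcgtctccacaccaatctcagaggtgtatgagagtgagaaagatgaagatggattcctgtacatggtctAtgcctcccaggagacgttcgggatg
MAP1LC3B2 (GRCh38, chr12:116576146-116576305, plus strand): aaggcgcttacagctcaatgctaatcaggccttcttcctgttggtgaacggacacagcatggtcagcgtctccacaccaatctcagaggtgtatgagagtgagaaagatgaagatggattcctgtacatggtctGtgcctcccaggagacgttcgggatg

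Between the 2 differing bases the sequences are identical over 307 bases. Of the 329 windows of 50 bases in the coding sequence, 258 (78.4%) are the same in both genes. Over whole transcripts, 18.3% of the windows of MAP1LC3B and 49.8% of those of MAP1LC3B2 occur in the other. How reads that match both genes were assigned is not given in the sources used here, so how much of either value came from the other gene was not tested. With both values added and divided by its canonical length, MAP1LC3B would stand at 237 per kb and its share of the family would be 3.73%. That is above GABARAPL1 at 212 and below GABARAP and GABARAPL2. With the median protein coding transcript GABARAPL1 was at 648, above the sum, so this order depends on the length. Divided by its own transcript length, MAP1LC3B2 alone was at 468 per kb.

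The cargo receptors ran from the fourth highest level per kb of the 38 genes to the second lowest. TAX1BP1, a ubiquitin-binding receptor, was at 1321 per kb. CALCOCO2, the receptor NDP52, was at 687, and NBR1, a receptor for ubiquitinated aggregates, was at 558. OPTN, a receptor for damaged mitochondria and aggregates, was lower, at 73.7. CCPG1, a receptor that carries pieces of the ER to autophagosomes, was at 2.80 per kb. Its listed value was 9.96, just under the minimum of 10.

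CCPG1 lies at chr15:55340032-55408510 on the minus strand of GRCh38. The upstream neighbour on the same strand is DNAAF4, listed under its older symbol DYX1C1, and the annotation holds a readthrough gene that joins exons of both, DNAAF4-CCPG1, listed as DYX1C1-CCPG1. These 2 symbols, which are not among the 38, were examined after the low value of CCPG1 was seen. The readthrough was listed at 1229, a ratio to CCPG1 of 123 as listed and of 95.6 per kb, and DYX1C1 itself was listed at 29.8. Of the 50-base windows of the canonical CCPG1 transcript, 95.8% occur in the readthrough transcript. Few reads from that CCPG1 transcript could therefore be told apart from the readthrough by sequence. The longest annotated CCPG1 transcript has 6822 bases, against 3553 for the canonical one, and its windows were not compared. Only 0.803% of the 2 values' sum stood under the symbol CCPG1. If the whole sum is placed on the CCPG1 transcript it gives 349 per kb, at the 61.2 percentile of genes, between OPTN and NBR1. That sum also contains any reads from the DNAAF4 exons of the readthrough, and how reads common to both genes were assigned was not tested.

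**Figure D3:**
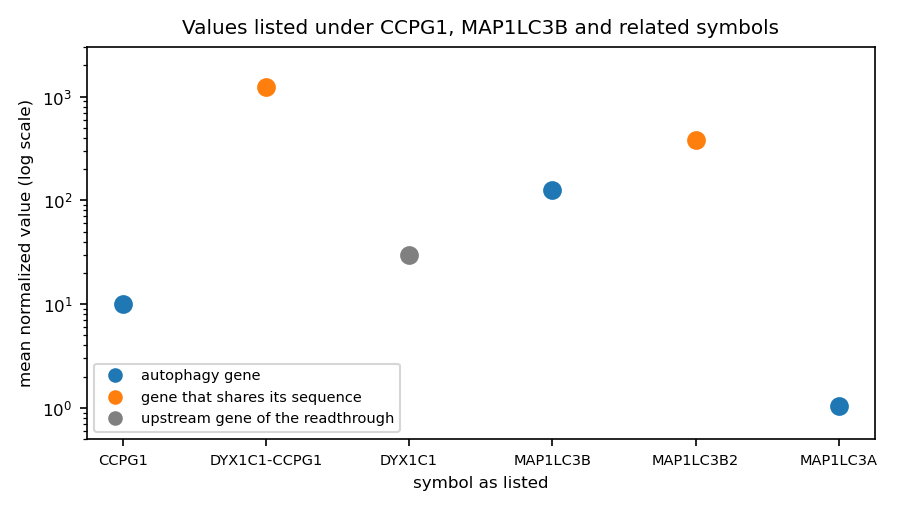
Mean normalized values as listed, not divided by length (vertical axis, log scale) for CCPG1, its readthrough with the upstream gene and that upstream gene, and for MAP1LC3B, its copy MAP1LC3B2 and MAP1LC3A. The readthrough symbol stands at 1229 against 9.96 for CCPG1, and the copy at 383 against 127 for MAP1LC3B.

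Of the other receptors for cargo and the ER, all 7 genes examined reached 10, with a median of 374 per kb. The highest was TEX264, an ER-phagy receptor, at 3215, and the lowest RETREG1, another one, listed under its older symbol FAM134B at 23.7 per kb. In the mitophagy list all 5 genes reached 10, and the highest was the kinase PINK1, at 821 per kb.

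The fusion step was represented by STX17, the SNARE of the closed autophagosome, and transcriptional control by TFEB. STX17 was at 33.2 per kb, on this scale the lowest of the 38 after MAP1LC3A, CCPG1 and ATG10. Of the other genes listed for fusion with lysosomes, all 11 reached 10, with a median of 467 per kb, from the tethering factor EPG5 at 53.6 to the small GTPase RAB7A at 3257. TFEB, a transcription factor for autophagy and lysosome genes, was at 99.6, and its relatives TFE3 and MITF were at 479 and 60.5, while TFEC was not listed. TFE3 exceeded TFEB by 4.81-fold with the canonical transcript, by 4.62-fold with the median protein coding transcript and by 7.44-fold with the longest transcript. All 7 lysosomal genes reached 10, with a median of 1393 per kb, from the protease gene CTSB at 379 to CTSD at 3570. Of the 43 further pathway genes examined, 42 were listed and 41 reached 10, with a median of 474 per kb against 429 for the 38.

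Sequence shared with other annotated genes was then measured for every gene of the set, as windows of 50 bases of the canonical transcript that occur in any transcript of another gene. On the same strand, 4 of the 38 shared at least 10% of their windows, and 26 shared none. Beside CCPG1 and MAP1LC3B these were GABARAP, at 52.4%, and ATG9A, at 47.9%. In both of the latter most of the overlap was with 1 protein coding gene that the annotation gives only an identifier and that was not listed in the tables. On the opposite strand 7 genes shared at least 10%, and 28 of the 38 stayed under that share on both strands. The largest such share among genes with a listed partner was that of BECN1, 36.4% with CNTD1, and CNTD1 was listed at only 1.66. ATG7 shared 29.3% with VGLL4 (listed at 823), WIPI1 26.4% with ARSG (179), ATG14 20.5% with FBXO34 (1015) and ATG4D 14.9% with KRI1 (2878). These partners were named after their values were seen. The libraries were made with a protocol that keeps strand, but whether the counting used it is not given in the sources used here, and the part of the partners in these values was not tested.

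**Figure D4:**
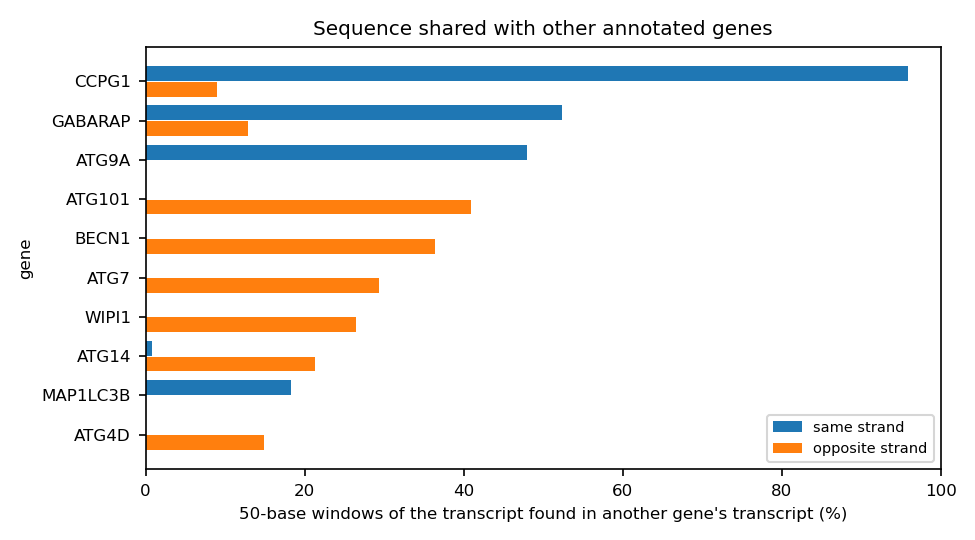
Share of 50-base windows of the canonical transcript that occur in a transcript of another gene (horizontal axis, %), on the same strand (blue) and the opposite strand (orange), for the 10 autophagy genes with at least 10% on either. CCPG1 is highest, at 95.8% on the same strand, followed by GABARAP at 52.4% and ATG9A at 47.9%.

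The genes were scattered over the genome with 1 concentration. Chromosome 17 carries 7 of the 38 (ULK2, BECN1, WIPI1, GABARAP, NBR1, CALCOCO2 and VMP1), or 18.4%, against 5.97% of the genes of at least 10, and no other chromosome carries more than 3. BECN1 and NBR1 are 337 kb apart. The transcripts of the set have a median length of 3516 bases, against 3258 for all genes of at least 10, and run from 964 bases for MAP1LC3A upward.

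Promoter windows of RefSeq genes, from 250 bases before to 50 after the gene start on GRCh38.p14, were matched by symbol to 33 of the 38 genes and searched on both strands for 4 motifs. The E-box CACGTG, the core of the site bound by TFEB and its relatives, was found in 2 windows, those of ATG14 and ATG3, or 6.06%, against 8.77% of all 27305 genes with a window. The extended form TCACGTGA, whose matches are all counted under the E-box too, was found in ATG3 alone, against 1.18% of all genes. The ATF4 element TGATGNAA was found in 0 windows, against 4.46% of all genes. The ER stress element, CCAAT and CCACG with 9 bases between them, was also found in 0 windows, against 0.0916% of all genes. A missing match says only that these letters are not in this window.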

How the data were processed

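RNA was measured in 12 samples, with 4 groups of 3. Per the labels, polyA mRNA libraries that keep strand were sequenced on the DNBSEQ platform. According to the methods, alignment to GRCh38.p7 used DNAstar SeqManPro, ArrayStar and QSeq gave the expression values, and the submitters' processing notes name DESeq2 version 1.40.1 and list GRCh38 and GRCh37. The authors deposited 3 tables, 1 per compound against vehicle. Each holds a mean normalized signal per gene over all samples, identical in the 3 tables, beside columns of the authors' own comparisons (log2 fold change, its standard error, test statistic, p-value and adjusted p-value). Those columns were not used. No compound was therefore compared with vehicle, and 0 columns of per-sample values were used. The methods describe RPKM, but the deposited signal, multiplied by transcript length in kb and summed over genes, came to 127 times the total that RPKM would give. It was read as a value normalized between samples and not for length. A further 23 symbols read as dates or numbers and could not be matched.

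Levels were divided by the canonical transcript length of GENCODE release 44 (GRCh38), matched by current or older symbol for 90.0% of the genes of at least 10. Exact 50-base windows were compared with all GENCODE transcripts. Proteins were translated from canonical coding sequences and aligned globally with Biopython 1.88 (gap open 11, extend 1). Computations ran in Python 3.11.15 with pandas 2.3.3 and numpy 2.4.6. The window comparison, motif search, count of identical residues and percentile were tested on made-up data. The genes and lists were chosen with earlier results of these data known. By rule all 38 genes are given, and from 43 other pathway genes the counts by list, the highest and lowest per length, and paralogs. The leukocyte marker list and the lowest mitophagy gene are not reported here. No test was run, since 1 mean per gene has no replicate spread.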

Additional observations from a re-analysis of the deposited data

How the results depend on the processing

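The number of genes at or above the minimum was 36 with a minimum of 10, 38 with 1 and 35 with 100, where ATG10 dropped out, and 37 when the values of the CCPG1 readthrough and the MAP1LC3B copy were added, an alternative chosen after seeing the data. The median percentile of the 38 genes was 70.2 among genes of at least 10, 80.0 among all genes above 0, 60.0 among genes of at least 100 and 65.6 per kb. The median level per kb of 429 became 381 with the longest transcript, 637 with the median protein coding transcript, which includes short fragments, and 828 with the coding length. The highest gene of a paralog family was the same in 6 of 6 families with the longest and the median transcript and in 5 with the coding length, where the ratio of ATG4D to ATG4B turned from 1.08 to 0.628. Over the 4 lengths the ratio of GABARAP to GABARAPL2 ran from 2.15 to 5.02. The median protein identity within families was 52.2% over the alignment and 54.9% over the shorter protein. The extended E-box was in 1 window and in 0 when only bases before the gene start were searched, and the counts of the other 3 motifs were the same.

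No paired analysis was possible because only 1 mean over all samples was used for each gene. For the same reason leaving out each replicate could not be run, and the spread between samples and the depth behind each value were not analysed here.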
